A study of Mus musculus with 9 samples.

Results

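Pancreas of mice with caerulein-induced injury plus endotoxin (the Model group, mice 56, 57 and 59) was compared with pancreas of saline-injected mice (the Control group, mice 43, 44 and 45) across the whole deposited messenger RNA table. These are 6 of the 9 mice of the series, 3 in each group, chosen by their labels, and 12828 of the 17132 genes in the table were expressed well enough to test. All mice were C57BL/6 and weighed 22 to 25 g, with neither sex nor age among the labels used here. Control mice received 7 intraperitoneal saline injections, an hour apart, and later saline in the place of medication. Model mice received 7 injections of caerulein on the same schedule, at 50 mg/kg as the series text writes it, with a dose of lipopolysaccharide (LPS) at the final injection, and the same later saline. Tissue was collected 24 h after the procedure began. Both agents were given to every Model mouse, so the effect of caerulein and that of LPS cannot be told apart here.

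Caerulein is a decapeptide relative of cholecystokinin, the gut hormone that makes pancreatic acinar cells release digestive enzymes. Repeated high doses overstimulate these cells, so that secretion stalls and enzyme precursors are activated inside the cell, and an acute, oedematous pancreatitis follows. LPS is a component of the outer membrane of Gram-negative bacteria that is sensed through CD14, MD-2 and the receptor TLR4, and it is given to make the inflammation more severe. Acinar cells devote most of their messenger RNA to a small set of secreted enzymes, so a fall of these transcripts changes the share that every other gene takes of a library.

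Each gene is therefore reported on both of the available scales. On the composition scale (TMM, a trimmed mean that sets the typical gene to no change) a value says how a gene moved relative to most other genes. On library totals a value is a share of all counts of the library. CPM below are on the composition scale, per 1000000 of an effective library size, which is the library total multiplied by its TMM factor. The factors were 0.359 to 0.397 in Control and 1.52 to 1.81 in Model. These CPM therefore do not sum to 1000000 in a library and are not shares of it. Fold changes are log2 of Model over Control with their standard error. A gene is called higher or lower where edgeR's quasi-likelihood test gave a Benjamini-Hochberg adjusted p under 0.05 over all genes tested. P-values measure the spread between mice within groups, estimated over all 9 mice of the series. These include the group given caerulein and Qingyi Decoction, which is not compared here.

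The choice of scale set the direction of most genes. On the composition scale 2736 genes (21.3%) were higher in Model and 2730 (21.3%) were lower. On library totals 12063 (94.0%) were higher and 121 (0.943%) were lower, so that 12184 (95.0%) were called there against 5466 (42.6%) on the composition scale. These shares are the background for every count of list members below. The median fold change moved from 0.04 to 2.19, a shift of 2.15. All 2736 genes called higher on the composition scale were also higher on totals. Of the 2730 lower ones, 2124 were higher on totals, 485 were not called there and 121 were lower there too. The 121 genes that fell on both scales lost share of the library as well as ground against the typical gene, with a median of -3.40 on the composition scale and -1.27 on totals. The Model and Control libraries did not overlap for 3519 genes (27.4%) that stood higher in Model and for 3196 (24.9%) that stood lower, on the composition scale.

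**Figure D1:**
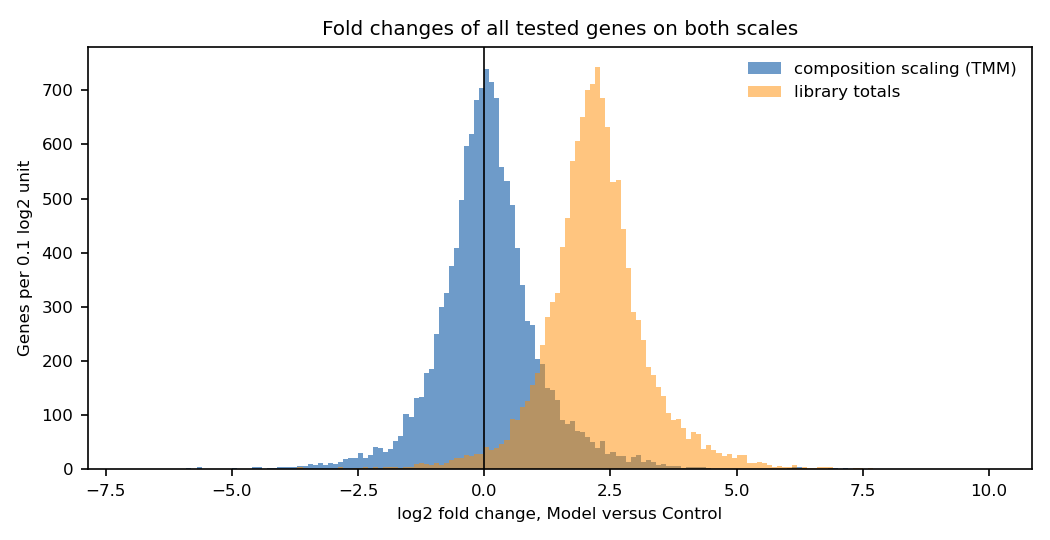
Number of tested genes per 0.1 log2 unit of fold change, Model over Control, on the composition scale (blue) and on library totals (orange). The same 12828 genes are centred at 0.04 on the first scale and at 2.19 on the second.

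Libraries held between 19112911 and 20212746 estimated counts, so depth differed little. The 50 most abundant genes took 91.4%, 90.9% and 90.8% of counts in Control 43, 44 and 45 and 64.8%, 65.2% and 70.2% in Model 56, 57 and 59. Control 45 stood above the other controls for part of the 2736 genes higher in Model on both scales. Of these, 229 were more than 2-fold above the other controls in Control 45, against 3 in Control 43 and 2 in Control 44. The same count over all tested genes is not given here. Over all tested genes, Control 45 was no further from Control 43 and 44 (SD of log2 ratios 0.449 and 0.443) than they were from each other (0.479). The spread of log2 ratios between Control 45 and the Model libraries (SD over genes 0.623 to 0.719) was smaller than that of Control 43 and 44 against them (0.819 to 0.908). Results that rest on this library are given with and without it.

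Digestive enzyme transcripts gave up a large part of the Model libraries. Genes of 4 digestive enzyme lists took 88.0%, 87.9% and 86.9% of counts in Control 43, 44 and 45 and 52.1%, 51.4% and 57.1% in Model 56, 57 and 59. Every Model library lay below every Control library, a difference of 34.1 percentage points between means (exact permutation test, p = 0.1, the smallest that 3 against 3 libraries can give). Amylases, nucleases and granule proteins fell most in share, from 35.7% ± 3.35 (SD, n = 3) to 17.0% ± 1.09, and lipases with colipase from 9.91% ± 1.43 to 4.25% ± 0.308. Chymotrypsins, elastases and carboxypeptidases went from 27.3% ± 2.80 to 21.4% ± 1.26 and trypsinogens from 14.8% ± 0.504 to 10.8% ± 0.531. In a whole tissue, fewer acinar cells and less enzyme RNA per cell cannot be told apart.

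**Figure D2:**
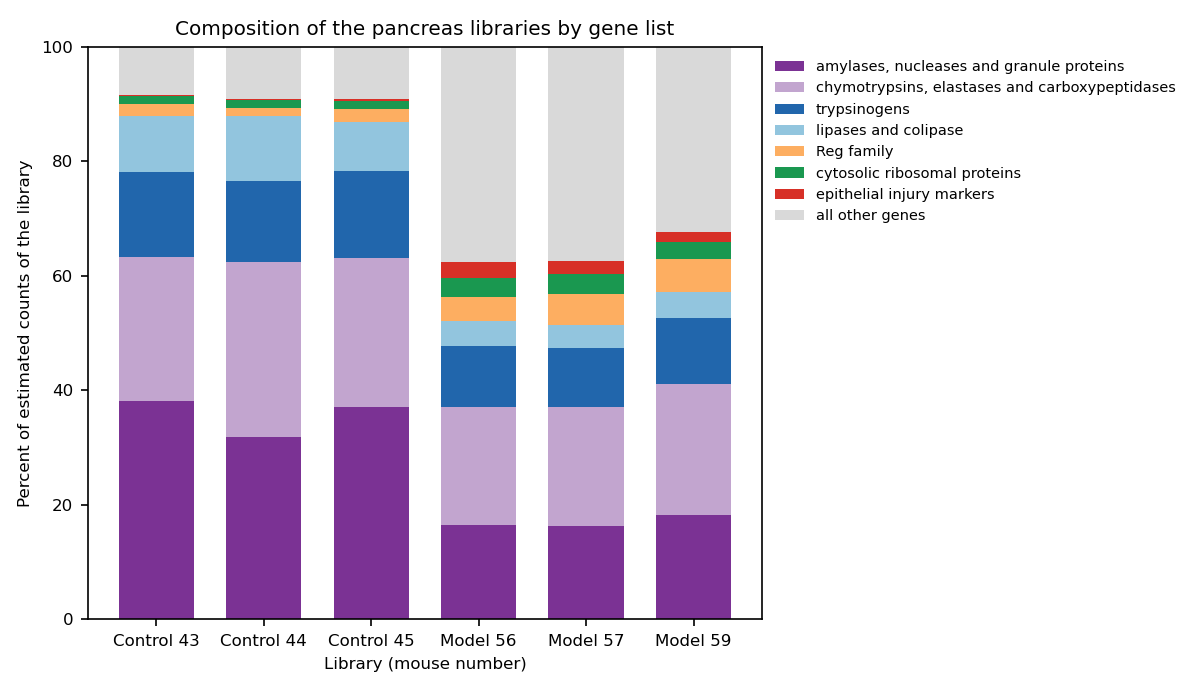
Percent of all estimated counts of each library (y axis) taken by gene lists, with 1 bar per mouse. The 4 enzyme lists together fill 86.9% to 88.0% of the Control bars and 51.4% to 57.1% of the Model bars.

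Single enzymes shared this direction with few exceptions. All 10 chymotrypsins, elastases and carboxypeptidases fell on the composition scale, with a median of -3.28, and 9 of them also on library totals (median -1.14), against 0.04 and 2.19 for all genes. Carboxypeptidase B1 (Cpb1), which trims basic residues from peptides, stood at 101735, 86847 and 103222 CPM in Control 43, 44 and 45, against 6278, 6772 and 9214 CPM in Model 56, 57 and 59. The groups lay far apart, with the Model libraries close to each other, and the change was -3.71 ± 0.27, with -1.58 on totals. Elastase 2A (Cela2a) changed by -3.48 ± 0.23 and chymotrypsin C (Ctrc), annotated in the mouse reference as a transcribed pseudogene, by -3.52 ± 0.16. The exception on totals was chymotrypsinogen B1 (Ctrb1), which fell by 1.55 on the composition scale and yet rose from 7.8% ± 0.792 of counts in Control to 11.7% ± 1.02 in Model, the largest gain in share of any gene.

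Lipid and starch digestion followed the same pattern. All 6 members of the lipase list fell on both scales, with medians of -3.03 and -0.89. Pancreatic lipase (Pnlip) went from 125296, 128053 and 90578 CPM in Control 43, 44 and 45, against 8800, 8105 and 11381 CPM in Model 56, 57 and 59. Its change of -3.60 ± 0.25 was matched by bile salt-activated lipase (Cel, -3.25 ± 0.21), while colipase (Clps), the cofactor that anchors lipase to fat droplets, changed by -4.65 ± 0.25, the widest of the list. Amylase 2a5 (Amy2a5) took 31.1% of Control counts and 12.7% of Model counts, and changed by -3.43 ± 0.26. It belongs to a cluster of near-identical amylase copies between which reads may be split, so values of single copies are uncertain. Pancreatic ribonuclease (Rnase1, -3.92 ± 0.28) and the zymogen granule proteins Zg16 (-3.32 ± 0.24) and syncollin (Sycn, -2.91 ± 0.19) fell on both scales as well. All 14 tested members of the amylase and granule list fell on the composition scale, 8 of them on both, and 2 were higher on totals.

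Trypsinogens, the precursors of trypsin, did not all move one way. Of 11 tested copies 5 fell and 2 rose on the composition scale, with a median of -0.93 (1.16 on totals). Trypsinogen Prss2 stood at 84021, 81650 and 74527 CPM in Control 43, 44 and 45, against 13969, 12882 and 17490 CPM in Model 56, 57 and 59, a change of -2.44 ± 0.23. The copies 2210010C04Rik (-3.37 ± 0.27), Try4 (-3.09 ± 0.30), Try10 (-2.45 ± 0.19) and Try5 (-2.29 ± 0.27) were lower too, the first of these and Try4 and Prss2 on both scales. In contrast Gm2663 stood at 388, 164 and 1884 CPM in Control 43, 44 and 45, against 5540, 7168 and 6493 CPM in Model 56, 57 and 59, above every Control library in every Model library. Its share went from 0.0317% ± 0.0375 of counts in Control to 1.08% ± 0.151 in Model, and its change was 2.98 ± 0.70, or 4.54 without Control 45, where it was highest among the controls. The related copy 1810009J06Rik, named after its values were seen, behaved likewise, with 2.62 ± 0.63 and 3.74 without Control 45. These genes are close paralogs, and 4 rather than 2 of them were called higher without Model 56.

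The transcription factors that maintain acinar cells were mostly lower on the composition scale. Of 12 tested, 9 fell on that scale and 2 on both, while 9 were higher on totals, with medians of -0.70 and 1.44. The 2 that fell on both scales were Bhlha15 and Rbpjl. Bhlha15 (also called Mist1), which organises the secretory apparatus, stood at 197, 168 and 173 CPM in Control 43, 44 and 45, against 4.92, 17.8 and 28.1 CPM in Model 56, 57 and 59. Every Model library was far below every Control library, Model 56 most of all, and the change was -3.41 ± 0.57 on the composition scale and -1.31 on totals. Rbpjl, a subunit of the PTF1 complex that drives enzyme genes, changed by -2.78 ± 0.29 and -0.66. Its partner Ptf1a, named after its values were seen, changed by -0.78 ± 0.26, with 1.35 on totals, and Foxa3 by -2.04 ± 0.24, with 0.12. Only Xbp1, a factor of the unfolded protein response, was called higher (0.43 ± 0.13), and that call was lost without Control 43, Control 45, Model 57 or Model 59. Without Model 56 the count of lower members was 5.

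The secretory pathway that serves the enzymes was lower relative to the typical gene. On the composition scale 12 of 16 endoplasmic reticulum chaperones fell (median -1.29), 24 of 31 translocon and oligosaccharyltransferase subunits (median -0.84), 14 of 18 degradation factors (median -1.18), 7 of 11 p24 cargo receptors and 10 of 19 disulphide isomerases and oxidases. On library totals the medians of these lists lay between 0.85 and 1.57, against 2.19 for all genes. There 14 of the 16 chaperones were higher, against 94.0% of all genes tested. A small set fell on both scales and stood out within each list. The chaperone-like isomerase Fkbp11 changed by -3.28 ± 0.23, with -1.13 on totals, and Derl3, a channel component for misfolded proteins, by -4.13 ± 0.29. Derl3 stood at 93.6, 97.2 and 70.3 CPM in Control 43, 44 and 45, against 4.01, 4.08 and 6.86 CPM in Model 56, 57 and 59, so that the groups lay far apart. By contrast the general chaperone Hyou1 (-1.50 ± 0.13) and the cyclophilin Ppib (-2.11 ± 0.15) were lower on the composition scale alone, with 0.65 and 0.03 on totals. Among coat proteins of transport vesicles 15 of 31 were lower on the composition scale and none on totals. Copz2 changed most, by -2.12 ± 0.16 against 0.02 on totals, and the cargo receptors Lman1 (-1.63 ± 0.17) and Mcfd2 (-1.77 ± 0.15), which carry clotting factors in other tissues, fell on the composition scale while they rose on totals.

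Genes of regulated secretion also moved. Of 20 receptors and granule release genes 10 fell on the composition scale, with a median of -0.43 against 1.71 on totals. The Golgi calcium pump Atp2c2 fell on both scales, by -3.74 ± 0.22 and -1.60. The granule GTPases Rab26 (-2.39 ± 0.19) and Rab27b (-2.61 ± 0.25) were lower on the composition scale and not called on totals (-0.24 and -0.47). The cholecystokinin receptor Cckar, the target of caerulein, stood at 342, 337 and 303 CPM in Control 43, 44 and 45, against 60.4, 143 and 213 CPM in Model 56, 57 and 59. It was lower in every Model library, most of all in Model 56, with a change of -1.24 ± 0.37 on the composition scale and 0.87 on totals, and it is named after its values were seen.

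Ribosomal and mitochondrial genes changed direction with the scale. All 77 cytosolic ribosomal protein genes were lower on the composition scale, with a median of -1.02, and all 77 were higher on totals, with a median of 1.14. Rps25 stood at 431, 371 and 392 CPM in Control 43, 44 and 45, against 149.6, 159 and 153 CPM in Model 56, 57 and 59, an even fall across the 3 Model mice. As a share of counts, the ribosomal genes took 1.47% ± 0.0132 in Control and 3.22% ± 0.282 in Model. In the respiratory chain 72 of 78 subunits were lower on the composition scale (median -0.88) and 77 were higher on totals (median 1.27), with Ndufa1, a subunit of complex I, at -2.02 ± 0.15 and 0.12. Fatty acid oxidation had 13 of 18 genes lower and 2 higher on the composition scale (1 higher without Control 43, Model 57 or Model 59), and 13 higher on totals. The lower ones included Ech1 (-2.09 ± 0.17) and the medium-chain dehydrogenase Acadm (-1.81 ± 0.13), neither called on totals (0.05 and 0.33). Mitochondrial ribosomal proteins were mostly not called, with 27 of 78 lower on the composition scale, and all were higher on totals.

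Amino acid handling, which in the pancreas supplies enzyme synthesis, held several of the deepest falls. Of 23 glycine, serine and methyl group genes 16 were lower on the composition scale (median -1.20), 4 of them on both scales, while 13 were higher on totals (median 0.96). Glycine N-methyltransferase (Gnmt) stood at 98.4, 110.2 and 89.6 CPM in Control 43, 44 and 45, against 2.55, 3.54 and 6.52 CPM in Model 56, 57 and 59. All Model libraries were far below the controls, and Gnmt changed by -4.57 ± 0.29 and by -2.46 on totals. Gamt, which makes creatine, changed by -3.96 ± 0.25 and -1.81. The glycine decarboxylase Gldc, named after its values were seen, had no count in any Control library and 0.315, 0.476 and 0.276 CPM in Model 56, 57 and 59. Among 18 amino acid transporters 11 were lower on the composition scale and 1 of these on totals. That transporter, Slc38a5, which carries glutamine and serine, stood at 71, 56.1 and 50.1 CPM in Control 43, 44 and 45, against 3.52, 2.8 and 4.07 CPM in Model 56, 57 and 59, with a change of -4.09 ± 0.19 and -1.94 on totals. Slc38a1, another glutamine carrier, rose on both scales (1.74 ± 0.21). Of 20 transfer RNA synthetases 12 were lower on the composition scale and all were higher on totals. In the stress pathway of the factor ATF4, 7 of 15 genes were lower on the composition scale and 3 were higher on both, with a median of -0.31 (1.86 on totals). Ddit4, an inhibitor of mTOR signalling, rose (1.16 ± 0.19). Asparagine synthetase (Asns) fell by 1.40 and Atf4 itself by 1.01 on the composition scale, while both rose on totals (0.76 and 1.15).

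The 12 deepest falls among genes called on both scales, with at least 10 CPM in Control and no overlap between groups, crossed several functions. They were led by the pancreatic serpin Serpini2 and the p24 family member Tmed11. Serpini2 stood at 1120, 602 and 993 CPM in Control 43, 44 and 45, against 8.41, 7.86 and 25.1 CPM in Model 56, 57 and 59, a change of -6.04 ± 0.49, or -6.80 without Model 59. Tmed11 stood at 169.8, 118 and 187 CPM in Control 43, 44 and 45, against 1.52, 1.96 and 4.17 CPM in Model 56, 57 and 59, a change of -5.97 ± 0.36. Sostdc1, a secreted antagonist of BMP and Wnt signals, stood at 13.1, 74.8 and 51.2 CPM in Control 43, 44 and 45, against 0.801, 0.625 and 1.07 CPM in Model 56, 57 and 59. Control 43 was the lowest control for Sostdc1, yet all controls lay above the Model values, and the change was -5.81 ± 0.58. Others were the methyltransferase Inmt (-4.98 ± 0.54, or -5.74 without Model 59), the lipid-mobilising protein Azgp1 (-4.56 ± 0.34), the phosphatase inhibitor Ppp1r1b (-4.53 ± 0.34), the sodium channel subunit Scn4b (-4.47 ± 0.37), the kinase Brsk2 (-4.32 ± 0.23) and the kallikrein Klk1b11 (-4.26 ± 0.35), a member of a family of close copies. Lcat, which esterifies cholesterol in plasma, changed by -4.40 ± 0.38 and lies 5689 bases from the chymotrypsin-like enzyme gene Ctrl, which itself changed by -3.43 ± 0.21. The part of reads from neighbouring enzyme genes was not tested, and how strand was handled was not given in the sources used.

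**Figure D3:**
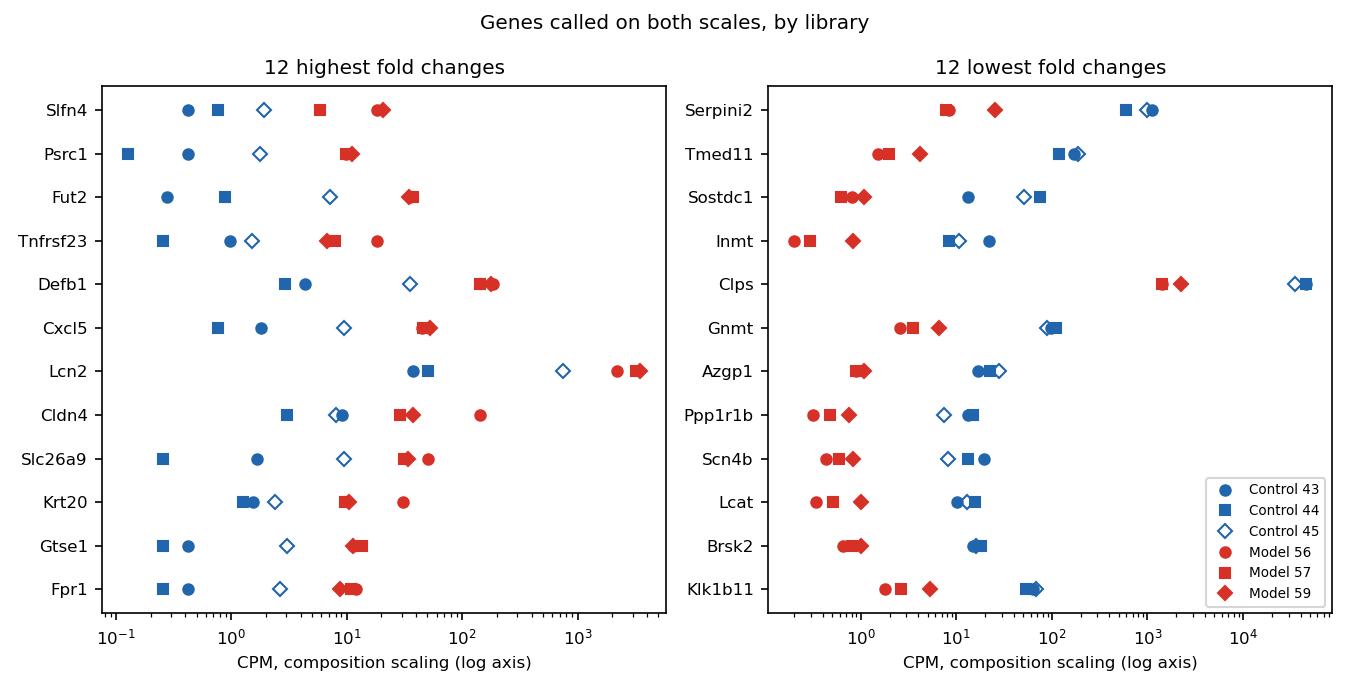
CPM on the composition scale (log axis) in each library for the 12 highest and 12 lowest fold changes among genes called on both scales. Control 45 (open diamond) is the highest control for most genes of the left panel, as for Lcn2 at 744 CPM. In the right panel it takes no single side. There it is the highest control for some genes, as for Tmed11 at 187 CPM, and the lowest for others, as for Clps at 35082 CPM.

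The highest changes were found in epithelial, cell cycle and myeloid genes. Slfn4, an interferon- and Toll-induced gene of myeloid cells, stood at 0.419, 0.764 and 1.91 CPM in Control 43, 44 and 45, against 18.2, 5.86 and 20.5 CPM in Model 56, 57 and 59. The groups did not overlap, with Model 57 lowest of its group, and the change was 3.82 ± 0.57 (4.62 without Control 45). Psrc1 and Gtse1, microtubule-binding proteins linked to p53, changed by 3.71 ± 0.42 and 3.26 ± 0.46, or 5.25 and 5.16 without Control 45. Several were genes of mucosal epithelium: the fucosyltransferase Fut2 (3.67 ± 0.55, 5.90 without Control 45), the beta-defensin Defb1 (3.56 ± 0.69, 5.54), the chloride transporter Slc26a9 (3.34 ± 0.61, 5.36) and keratin 20 (Krt20, 3.28 ± 0.64). Fut2 stood at 0.279, 0.891 and 7.12 CPM in Control 43, 44 and 45, against 35.4, 37.4 and 34.8 CPM in Model 56, 57 and 59, so that the 3 Model mice lay close together while Control 45 stood above the other controls. The tight junction gene Cldn4 stood at 9.08, 3.05 and 8.01 CPM in Control 43, 44 and 45, against 143, 29.3 and 37.9 CPM in Model 56, 57 and 59. Model 56 stood far above the other mice for Cldn4, and without it the change of 3.39 ± 0.67 became 2.33, while that of Krt20 became 2.53 and that of the decoy death receptor Tnfrsf23 went from 3.58 ± 0.70 to 2.99 (4.19 without Control 45).

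Promoter sequence is shown for 6 of the named genes, the 3 higher and the 3 lower with the smallest p among those whose 250 bases before the transcription start held a searched motif. Sequences are RefSeq promoters of build GRCm38.p6, written 5′ to 3′ on the strand of the gene up to the base before the start, and capitals mark motif matches on either strand. The higher genes are Epcam (chr17:87635729-87635978, plus strand), an adhesion molecule of epithelia, Eda2r (chrX:97377210-97377459, minus strand), a death receptor induced by p53, and Tnip1 (chr11:54962941-54963190, minus strand), which restrains NF-kB. The capitals mark the E-box CACCTG at -187 and -19 in Epcam and at -157 in Tnip1, and the TATA box TATAAA at -58 in Eda2r.
Epcam: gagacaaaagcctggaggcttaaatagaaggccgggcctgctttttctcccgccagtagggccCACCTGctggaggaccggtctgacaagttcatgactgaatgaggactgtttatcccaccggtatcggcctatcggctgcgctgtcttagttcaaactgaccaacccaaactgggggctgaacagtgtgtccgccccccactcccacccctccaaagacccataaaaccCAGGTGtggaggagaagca
Eda2r: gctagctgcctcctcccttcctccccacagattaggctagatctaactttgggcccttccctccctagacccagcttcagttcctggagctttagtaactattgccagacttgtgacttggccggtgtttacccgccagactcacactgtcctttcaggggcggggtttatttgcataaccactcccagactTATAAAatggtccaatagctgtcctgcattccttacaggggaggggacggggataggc
Tnip1: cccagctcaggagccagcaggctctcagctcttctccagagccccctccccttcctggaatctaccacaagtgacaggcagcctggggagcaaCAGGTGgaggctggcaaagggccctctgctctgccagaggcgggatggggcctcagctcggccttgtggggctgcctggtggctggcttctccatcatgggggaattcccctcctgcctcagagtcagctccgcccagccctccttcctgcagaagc
The lower genes are Slc38a5 (chrX:8271131-8271380, plus strand), Gstm2 (chr3:107986421-107986670, minus strand), a glutathione transferase, and Tmed6 (chr8:107065645-107065894, minus strand), a p24 cargo receptor. In Slc38a5 the capitals mark the TC box of PTF1 (TTTCCCA) at -191, an E-box at -37 and the clock E-box CACGTG at -30. In Gstm2 they mark an E-box at -219 and in Tmed6 E-boxes at -232 and -112.
Slc38a5: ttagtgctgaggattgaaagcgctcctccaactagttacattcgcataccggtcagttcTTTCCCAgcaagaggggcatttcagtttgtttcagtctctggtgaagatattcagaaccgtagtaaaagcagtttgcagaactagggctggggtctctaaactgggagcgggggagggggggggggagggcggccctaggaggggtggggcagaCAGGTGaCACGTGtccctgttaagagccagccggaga
Gstm2: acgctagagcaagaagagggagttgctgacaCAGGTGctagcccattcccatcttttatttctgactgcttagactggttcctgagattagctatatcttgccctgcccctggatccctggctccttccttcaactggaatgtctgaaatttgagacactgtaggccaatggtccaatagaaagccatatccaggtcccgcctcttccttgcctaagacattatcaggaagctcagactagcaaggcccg
Tmed6: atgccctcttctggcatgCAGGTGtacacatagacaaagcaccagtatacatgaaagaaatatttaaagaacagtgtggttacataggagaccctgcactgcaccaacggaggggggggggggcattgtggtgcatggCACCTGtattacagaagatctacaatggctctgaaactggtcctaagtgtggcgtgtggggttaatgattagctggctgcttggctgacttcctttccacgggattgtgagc

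Motif content was also counted over whole groups of promoters. The search covered 11 motifs on both strands of the 250 bases of 8143 tested genes with 1 start in the RefSeq table, and no match in the sequences above overlaps another. The E-box CACCTG, a core bound by PTF1, was present in 15.6% of all promoters. It was in 15.5% of 1715 promoters of genes higher on both scales and in 37.0% of 81 promoters of genes lower on both. Among digestive enzyme promoters it was in 18 of 32, unevenly over the 4 lists. It was in all 8 trypsinogens with a promoter in the table and in 6 of 8 chymotrypsins, elastases and carboxypeptidases. By contrast it was in 2 of 5 lipases and in 2 of 11 amylases, nucleases and granule proteins (18.2%). The TATA box was in 6.67% of all promoters, 7.99% of the higher and 17.3% of the lower. The NF-kB motif (GGGA, any base, TTTCC) was in 0.393% of all promoters and in 0.875% of the higher ones, and in 4 of 10 promoters of CXC chemokines and colony-stimulating factors. The interferon-response motif (GAAA, any 2 bases, GAAA) was in 2.79% of all, 4.43% of the higher and 10 of 22 promoters of interferon-stimulated genes. The TC box of PTF1 was in 6.96% of all, 7.81% of the higher and 13.6% of the lower, and the AP-1 motif TGANTCA in 4.22%, 6.18% and 3.70%. Other motifs stood at similar shares in these groups, such as the clock E-box with 8.42%, 7.93% and 8.64% and the antioxidant element with 1.97%, 1.69% and 1.23%. The cyclic AMP element was in 2.79%, 2.62% and 0%, and the NR5A2 motif and the unfolded protein response element were in under 1% of every group. These matches describe the letters in the window and no test was made of them.

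Genes of epithelial injury and repair rose together. On the composition scale 14 of 20 injury markers were higher, with a median of 1.90, and 19 were higher on totals. Clusterin (Clu), a secreted chaperone, stood at 1684, 1464 and 3932 CPM in Control 43, 44 and 45, against 13451, 11693 and 10295 CPM in Model 56, 57 and 59. Every Model library was above every control, its share went from 0.0911% ± 0.0562 of counts in Control to 2.02% ± 0.44 in Model, and its change was 2.32 ± 0.33, or 2.91 without Control 45. Epcam changed by 1.98 ± 0.19 and osteopontin (Spp1) by 2.14 ± 0.46. The trefoil factor Tff2 went the other way on both scales, by -3.62 ± 0.18 and -1.48. Of 7 keratins 5 rose, including Krt8 (1.69 ± 0.29), Krt18 (1.32 ± 0.23) and the duct keratin Krt19, which stood at 29.8, 24.4 and 35.8 CPM in Control 43, 44 and 45, against 179.7, 88.3 and 94 CPM in Model 56, 57 and 59. Krt19 was highest in Model 56 and did not overlap the controls. Among tight and gap junction genes 11 of 22 rose and 2 fell on the composition scale. Cldn2, a pore-forming claudin, changed by 3.61 ± 0.49 (4.86 without Control 45), and Cldn10 by -2.56 ± 0.33, with -0.45 on totals. The lower count, which holds Cldn10 and the gap junction gene Gjb1 (-0.90 ± 0.29), was 1 without Control 44, Control 45, Model 56 or Model 57.

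Cytoskeleton, matrix and growth factor genes accompanied them. Of 27 actin genes 23 were higher, with a median of 0.87, among them the capping protein Capg (1.76 ± 0.17) and the Arp2/3 subunit Arpc1b (1.35 ± 0.14). Of 15 matrix proteases and inhibitors 11 were higher and 3 lower on the composition scale. Mmp3 (2.26 ± 0.23), Mmp19 (2.16 ± 0.26) and the neutrophil collagenase Mmp8 (3.00 ± 0.51, 4.42 without Control 45) rose, and Timp3, Timp2 and Plau, named after their values were seen, were lower on the composition scale (-0.80, -1.39 and -1.45), with 1.38, 0.78 and 0.71 on totals. Of 9 EGF receptor and ligand genes 3 rose and 1 fell (2 without Model 56). The receptors Egfr (1.00 ± 0.15), Erbb3 (1.28 ± 0.25) and Erbb2 (0.74 ± 0.22, named after its value was seen) were higher, while the ligand Egf stood at 46.4, 38.9 and 30 CPM in Control 43, 44 and 45, against 2.09, 3.15 and 4.1 CPM in Model 56, 57 and 59. Egf was thus lower in every Model library, on both scales (-3.63 ± 0.24 and -1.49). Among protease inhibitors of several classes 9 of 16 rose, such as Serpinb6b (2.74 ± 0.34), and 4 fell on the composition scale. These were Serpini2, cystatin C (Cst3, -2.01 ± 0.13), the trypsin inhibitor Spink1 (-1.62 ± 0.20) and Serpini1 (-1.10 ± 0.17), the last 2 named after their values were seen. On totals Cst3 was not called (0.14), Spink1 stood at 0.52 and Serpini1 at 1.05.

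Stress and growth programmes differed in extent. Of 20 p53 targets 18 were higher, with a median of 1.64. Eda2r stood at 1.12, 0.891 and 2.92 CPM in Control 43, 44 and 45, against 14.6, 13.1 and 12.9 CPM in Model 56, 57 and 59. The Model mice lay within a narrow range and above all controls, and Eda2r changed by 3.03 ± 0.29 (3.75 without Control 45), Zmat3 by 1.72 ± 0.15. Sesn1, named after its value was seen, was the 1 target lower on the composition scale (-1.81 ± 0.32, 0.33 on totals). Of 26 replication and mitosis genes 10 rose and 1 was lower on the composition scale (2 without Model 57). The higher ones were led by the helicase subunits Mcm4 (1.93 ± 0.24) and Mcm6 (1.73 ± 0.18). The division marker Mki67, named after its values were seen, stood at 1.54, 0.636 and 1.27 CPM in Control 43, 44 and 45, against 1.12, 4.88 and 1.14 CPM in Model 56, 57 and 59. Its groups overlapped, with only Model 57 above the controls, and it was not called on the composition scale (adjusted p = 0.32, Benjamini-Hochberg, quasi-likelihood test in edgeR). Of 21 NRF2 targets 13 rose, including the aldo-keto reductase Akr1b8 and the exporter Abcc3 (2.07 ± 0.28), and 3 were lower on the composition scale, namely Gclm (-0.42), Osgin1 (-0.73) and Slc7a11 (-1.64), all named after their values were seen and at 1.73, 1.43 and 0.56 on totals. Of 30 glutathione transferases and peroxide enzymes 14 were lower on the composition scale, 5 were higher on both scales and 11 were not called. The 4 that were lower on both scales included Gstm2 (-3.64 ± 0.18), Gstm7 (-3.36 ± 0.20) and the endoplasmic peroxiredoxin Prdx4 (-2.77 ± 0.17). The Gstm genes are close copies of each other.

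Most genes of glycolysis and of cholesterol supply rose on both scales. Of 23 genes of glycolysis and the pentose phosphate pathway 19 were higher and 1 lower on the composition scale (2 without Control 44), with a median of 1.18 against 0.04 for all genes. Enolase 1 (Eno1) stood at 31, 35.4 and 52 CPM in Control 43, 44 and 45, against 138, 128 and 121 CPM in Model 56, 57 and 59. All Model values exceeded the highest control, Control 45, and the change was 1.71 ± 0.18. Phosphofructokinase Pfkl (1.46 ± 0.15) and pyruvate kinase Pkm (1.35 ± 0.15) moved likewise. Of 21 cholesterol genes 14 rose, among them the synthase Hmgcs1 (1.40 ± 0.22), and 1 was lower on the composition scale (0 without Control 44). Of 46 proteasome subunits 22 rose, among them the interferon-responsive activator Psme1 (1.49 ± 0.19), and 2 were lower on the composition scale, Psmd6 (-1.09 ± 0.11) and Psmb10 (-1.51 ± 0.14), which stood at 1.06 and 0.65 on totals. Psmb10 lies 1866 bases from Ctrl. Among heat shock genes Hspb1 (1.99 ± 0.21) and Hsp90ab1 (0.75 ± 0.13) rose and Dnajb4 was lower on the composition scale (-1.10 ± 0.17, 1.05 on totals), and 7 of 17 were higher and 2 lower on the composition scale, with 4 higher without Control 43, Control 44 or Model 56.

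Zinc and death genes were divided. Of 10 metallothioneins and zinc transporters 6 rose and 3 were lower on the composition scale. The importer Slc39a4 changed by 2.54 ± 0.34, while Slc39a5, an acinar zinc importer, stood at 236, 259.8 and 173 CPM in Control 43, 44 and 45, against 24.9, 20.4 and 27.3 CPM in Model 56, 57 and 59. Slc39a5 was far below the controls in all Model libraries and fell on both scales (-3.20 ± 0.18, -1.06 on totals), and the exporters Slc30a1 (-1.62 ± 0.25) and Slc30a8 (-2.28 ± 0.39, named after its value was seen) were lower on the composition scale only. Of 29 cell death genes 15 rose, including Bak1 (2.01 ± 0.17). Casp9 was the 1 lower on the composition scale (-2.54 ± 0.27, -0.42 on totals), and its annotated span overlaps that of Cela2a. The part of Cela2a reads in its count was not tested. Without Model 57 there were 2 lower.

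Inflammatory genes rose on both scales, and many did so from a Control 45 that was itself raised. Of 14 CXC chemokines and colony-stimulating factors 9 were higher and none lower, with a median of 2.10 (2.96 without Control 45). Cxcl5, which draws neutrophils, stood at 1.82, 0.764 and 9.53 CPM in Control 43, 44 and 45, against 44.5, 46.2 and 52.9 CPM in Model 56, 57 and 59. Control 45 lay above the other controls and still below every Model library, and the change was 3.55 ± 0.52, or 5.23 without it. Csf1 (1.91 ± 0.27) and the membrane chemokine Cxcl16 (2.12 ± 0.32) rose too. Of 17 CC chemokines 9 rose, among them Ccl12 (2.11 ± 0.44), Ccl2 (2.77 ± 0.38) and Ccl7 (2.40 ± 0.45, 3.17 without Control 45). None fell, but 1 was called lower on the composition scale without Control 45 and 2 without Model 57. In the interleukin-1 family 6 of 12 rose. Il1b stood at 0.279, 0.127 and 1.4 CPM in Control 43, 44 and 45, against 8.35, 7.62 and 6.24 CPM in Model 56, 57 and 59, low in all libraries but without overlap, and changed by 3.59 ± 0.56 (5.18 without Control 45). The antagonist Il1rn (3.15 ± 0.46, 4.37) and Il1f9 (3.43 ± 0.63, 5.11) rose with it.

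Receptors and transducers of these signals rose as well. Of 15 Toll-like receptors and LPS co-receptors 8 were higher, with 1 lower on the composition scale only when Model 57 was left out. Cd14, which presents LPS, stood at 8.66, 4.96 and 30.9 CPM in Control 43, 44 and 45, against 116, 112 and 99.6 CPM in Model 56, 57 and 59. The Model values lay close together and above each control, and the change was 2.87 ± 0.48 (4.01 without Control 45). Tlr2 (1.77 ± 0.26) and Tlr3 (1.94 ± 0.22) rose, and Tlr4, the LPS receptor itself, named after its values were seen, stood at 1.82, 1.78 and 2.29 CPM in Control 43, 44 and 45, against 3.06, 4.55 and 2.41 CPM in Model 56, 57 and 59. Tlr4 changed by 0.77 ± 0.28 (adjusted p = 0.048, Benjamini-Hochberg, quasi-likelihood test in edgeR). Of 30 NF-kB genes 20 rose, including the restraining protein Tnip1 (2.10 ± 0.20) and the adaptor Myd88 (1.34 ± 0.16), and the kinase Irak1 was lower on the composition scale (-1.19 ± 0.12) while it rose on totals (0.96). Of 20 TNF family members 12 rose and none fell, with Fas at 1.72 ± 0.22 and Tnfrsf1a at 1.06 ± 0.11. In the interleukin-6 and STAT3 group 11 of 16 rose, among them Il4ra (2.12 ± 0.24), while Il11ra1 (-1.48 ± 0.16, 0.66 on totals) and Lifr (-0.93 ± 0.13, 1.22, named after its value was seen) were lower on the composition scale. Of 19 early-response genes 9 rose, including Junb (2.05 ± 0.23), Fosl2 (1.67 ± 0.19) and Ier5 (1.77 ± 0.25), and 1 was lower on the composition scale (0 to 2 with 1 library left out).

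Most interferon-stimulated genes rose. Of 33 tested 29 were higher and none lower, with a median of 1.18 (1.33 without Control 45). Oas1a, a sensor of double-stranded RNA, stood at 3.55, 2.16 and 6.28 CPM in Control 43, 44 and 45, against 17.2, 17.6 and 18.3 CPM in Model 56, 57 and 59. The Model libraries were nearly equal and above each control, and the change was 2.15 ± 0.29. Slfn1 changed by 2.92 ± 0.34. Among interferon-gamma GTPases and antigen presentation genes 9 of 25 rose, including the immunoproteasome subunit Psmb8 (2.09 ± 0.34) and Tapbp (1.84 ± 0.27). Psmb10 was the 1 lower on the composition scale, and without Model 57 there were 5.

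Most acute phase genes rose, by an amount that depended on Control 45. Of 12 acute phase genes 7 rose, with a median of 2.02 that became 3.65 without Control 45. Lcn2, which binds bacterial siderophores, changed by 3.42 ± 0.92, or 6.07 without that library, where it stood at 744 CPM against 37.9 and 50.3 in Control 43 and 44. Ceruloplasmin (Cp, 1.96 ± 0.26) and Steap4 (1.70 ± 0.24) rose, and Itih4 was lower on the composition scale (-2.39 ± 0.27) and not called on totals (-0.24). Of 24 complement and coagulation genes 7 rose on the composition scale, against 21.3% of all genes tested. The others were not called there, and the median was 0.62 (0.53 without Control 45). Those that rose included complement factor B (Cfb, 2.22 ± 0.49, 3.06 without Control 45) and the protein C receptor Procr (2.48 ± 0.46, 3.39). The fibrinogen chain Fga stood at 0, 0 and 0.635 CPM in Control 43, 44 and 45, against 2.57, 2.71 and 2.38 CPM in Model 56, 57 and 59, so it was detected in 1 control only. None fell, but 1 was called lower on the composition scale without Control 44 and 5 without Model 57.

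The Reg family, secreted lectins of the injured pancreas, split by member. Reg3g rose from 229.8, 155 and 1177 CPM in Control 43, 44 and 45, against 2257, 4304 and 5199 CPM in Model 56, 57 and 59. Its change was 2.91 ± 0.65 (4.35 without Control 45). Reg3b changed by 1.03 ± 0.36 and the stress protein Nupr1 by 0.85 ± 0.26, but Reg3b was not called without Control 43, Control 44, Model 57 or Model 59 (adjusted p 0.065 to 0.11, Benjamini-Hochberg, quasi-likelihood test in edgeR) and Nupr1 not without Control 43, Control 45 or Model 59. Reg1 (-1.36 ± 0.22), Reg2 (-1.15 ± 0.26) and Reg3d (-1.94 ± 0.27) were lower on the composition scale. On totals Reg1 (0.78) and Reg2 (0.99) were higher and Reg3d was not called (0.19). Reg1 and Reg2 were among the 10 genes that gained most share of the library, as were Dmbt1 and an unnamed gene with the identifier 105246811, which was not called on the composition scale (0.03 ± 0.16). The family as a whole took 1.85% ± 0.435 in Control and 5.19% ± 0.829 in Model.

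Some lists moved little or in both directions. Of 28 autophagy and lysosome genes 7 were higher, among them the protease legumain (Lgmn, 1.57 ± 0.23), and 5 lower on the composition scale, with Gabarap at -0.90 ± 0.13 (1.25 on totals). Over all genes tested 21.3% were called in each direction on that scale. The lower count was 3 without Control 44 or Model 56. Clock genes were lower on the composition scale in 6 of 19, including Rora (-0.92 ± 0.12), Hlf (-2.12 ± 0.45) and Per1 (-0.63 ± 0.14), and the median on totals was 1.52. Glucocorticoid-responsive genes had medians of -0.10 and 2.05, near those of all genes. Of 14, 5 were higher, including Cebpd (1.81 ± 0.29) and Nfkbia (0.99 ± 0.15), and 3 lower on the composition scale. In prostaglandin and leukotriene synthesis 5 of 15 rose, and 1 was lower on the composition scale (0 to 2 with 1 library left out). Among those that rose were Pla2g4a (1.41 ± 0.36), Alox5ap (1.27 ± 0.24) and Ptges2 (0.87 ± 0.18). Of 14 duct and progenitor factors 5 rose and 3 were lower on the composition scale (1 without Control 44 or Model 56). Sox4 (2.29 ± 0.29) and Elf3 (1.75 ± 0.20) rose, and Myc was lower on the composition scale (-1.37 ± 0.22) and higher on totals (0.80).

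**Figure D4:**
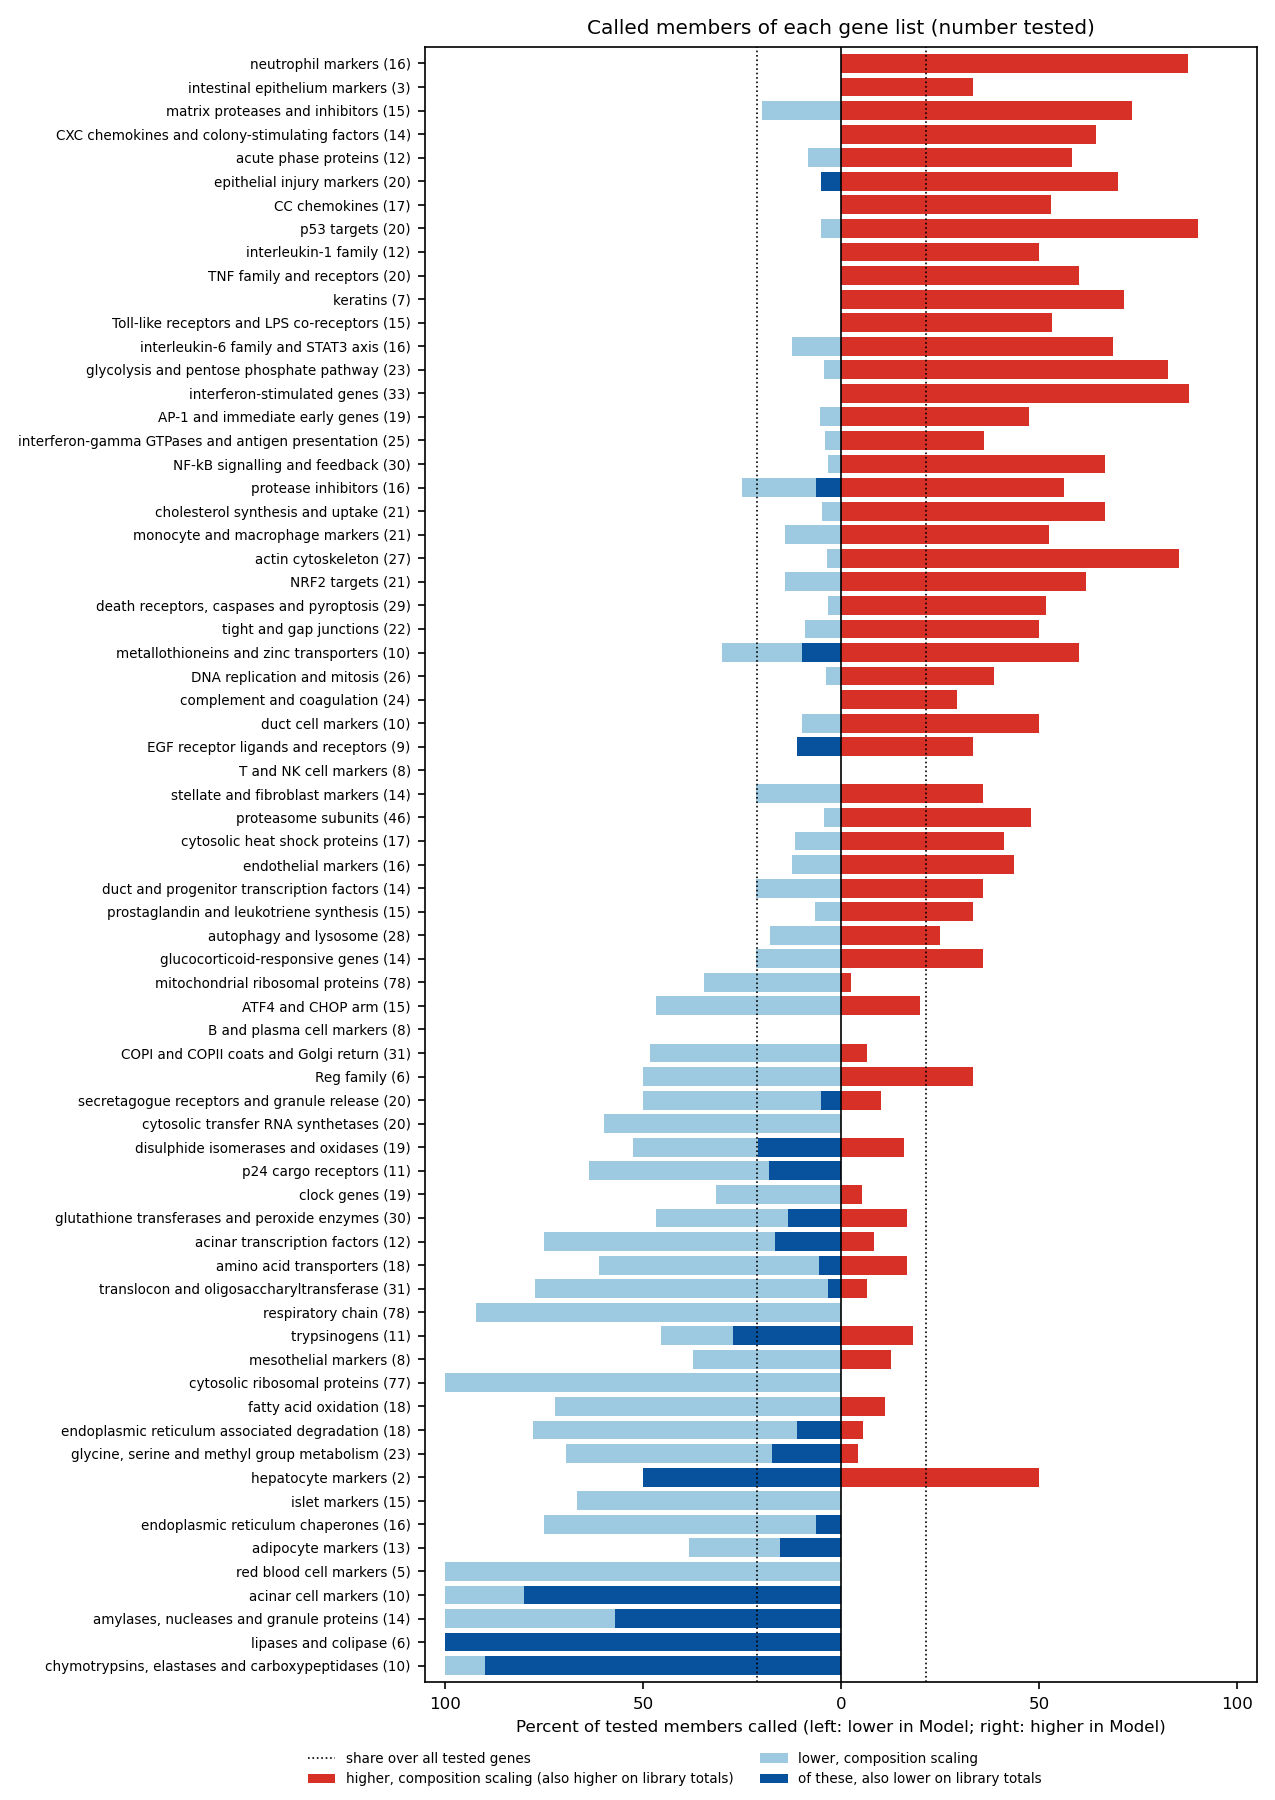
Percent of the tested members of each list called higher (right, red) or lower (left, light blue) in Model on the composition scale, with the part that was also lower on library totals in dark blue, ordered by median fold change. Dotted lines mark the 21.3% of all tested genes called in each direction. Dark blue is longest for lipases (6 of 6), chymotrypsins, elastases and carboxypeptidases (9 of 10), acinar markers (8 of 10) and amylases and granule proteins (8 of 14). It is shorter for trypsinogens (3 of 11) and acinar transcription factors (2 of 12).

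Marker genes of 14 cell types were summed in each library, in CPM on the composition scale unless shares of counts are named. All 10 acinar markers were present and lower on the composition scale, their sum at 633154 to 794806 CPM in Control and 118081 to 154891 CPM in Model. They had the highest sum of the 14 marker lists in every library of both groups, as a pancreas label calls for. Neutrophil markers summed to 42.2, 63.9 and 156 CPM in Control 43, 44 and 45, against 410.4, 522 and 619 CPM in Model 56, 57 and 59. All Model libraries exceeded all controls, Control 45 stood above the other controls, and 14 of 16 members rose, with a median of 2.76 (3.71 without Control 45). The formyl peptide receptor Fpr1 changed by 3.22 ± 0.47 (4.97 without Control 45), the receptor Csf3r by 2.75 ± 0.36 (3.35) and the granule protein Ngp by 2.29 ± 0.35.

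Macrophage markers were mixed, with 11 of 21 higher and 3 lower on the composition scale. Their sum overlapped between groups on that scale (106 to 199 CPM in Control and 168 to 342 CPM in Model). As shares of counts the groups did not overlap, at 0.00412% to 0.00715% in Control and 0.0255% to 0.0599% in Model. The lectin Clec4e (2.93 ± 0.54, 5.53 without Control 45), Fcgr1 (2.07 ± 0.35, 2.71) and the scavenger receptor Msr1 (2.15 ± 0.35) rose, while Lyz1, Lyz2 and Cd163, named after their values were seen, were lower on the composition scale and higher or not called on totals, as for Lyz1 (-1.44 and 0.74) and Cd163 (-0.85 and 1.33). That lower count was 0 without Control 43, 1 without Model 56 or Model 59, and 5 without Model 57. B and plasma cell markers were called in neither direction on either scale, with sums of 27.5, 6.62 and 8.01 CPM in Control 43, 44 and 45, against 1.55, 24.4 and 1.18 CPM in Model 56, 57 and 59. Control 43 and Model 57 stood above the rest, and without Model 57 Cd79a, Ms4a1 and Jchain were called lower (-4.32, -5.13 and -3.33). T and NK cell markers also summed low, to 2.42 to 10.1 CPM in Control and 3.76 to 15 CPM in Model. None was called on the composition scale, or 1 lower without Model 57. On totals 5 of 8 were higher, against 94.0% of all genes tested. The part of changed cell numbers in the inflammatory lists was not tested.

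Duct markers summed to 246 to 316 CPM in Control and 495 to 806 CPM in Model, without overlap, and 5 of 10 were higher (3 without Control 43 or Control 45), among them Krt19, Spp1 and the bicarbonate transporter Slc4a4 (2.05 ± 0.53). The factor Sox9, named after its value was seen, was lower on the composition scale (-0.58 ± 0.20, 1.57 on totals), a call lost without Control 43, Control 44, Model 56 or Model 57. Islet markers summed to 869.7 to 1299 CPM in Control and 178 to 374 CPM in Model, and 10 of 15 were lower on the composition scale and none on totals. Insulin 2 (Ins2) stood at 514, 490.2 and 751 CPM in Control 43, 44 and 45, against 173, 109.9 and 85.6 CPM in Model 56, 57 and 59, below every control in each Model library, with -2.25 ± 0.31 on the composition scale and -0.08 on totals. Somatostatin (Sst) changed by -2.71 ± 0.25 and chromogranin A (Chga) by -1.76 ± 0.27. Of 16 endothelial markers 7 were higher (5 without Control 45) and 2 lower on the composition scale (1 without Control 44, Model 56 or Model 59), with a median of 0.18 and a sum of 103 to 139.9 CPM in Control and 145 to 181 CPM in Model. The adhesion molecules P-selectin (Selp, 2.74 ± 0.48, 3.64 without Control 45) and Icam1 (2.27 ± 0.27) rose, while the receptor Tek was lower on the composition scale (-1.53 ± 0.35, 0.60 on totals). Stellate and fibroblast markers overlapped as a sum on the composition scale (302 to 413 CPM in Control and 310.4 to 518 CPM in Model). As shares of counts their sums did not overlap, at 0.01175% to 0.0148% in Control and 0.0471% to 0.0907% in Model. Of these markers 5 of 14 were higher and 3 lower on the composition scale (1 without Model 56 or Model 59). Postn (2.23 ± 0.39) and Pdpn (1.97 ± 0.27) were among the higher and Dpt among the lower (-0.99 ± 0.17, 1.18 on totals).

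Markers of tissue around the pancreas varied between single mice. Adipocyte markers summed to 410.2, 293 and 181 CPM in Control 43, 44 and 45, against 86.4, 148 and 78.9 CPM in Model 56, 57 and 59. Control 43 was highest and the groups did not overlap on the composition scale. As shares of counts they overlapped, at 0.00719% to 0.0147% in Control and 0.0120% to 0.0260% in Model. On totals 5 of 13 markers were higher and 2 lower, against 94.0% and 0.943% of all genes tested, with a median of 0.84. Lipoprotein lipase (Lpl) was lower on both scales (-2.77 ± 0.20, -0.62 on totals). Carbonic anhydrase 3 (Car3) stood at 66.6, 32.8 and 1.53 CPM in Control 43, 44 and 45, against 0.658, 2.59 and 0.517 CPM in Model 56, 57 and 59 and so rested on Control 43 and Control 44. Its change of -4.72 ± 1.01 became -3.76 without Control 43 and -5.81 without Model 57, and 5 adipocyte markers were lower on the composition scale in all, 3 when Control 43, Control 44, Model 56 or Model 59 was left out and 8 without Model 57. Haemoglobin and other red cell markers summed to 213, 74.2 and 76.1 CPM in Control 43, 44 and 45, against 32.4, 24.5 and 41.7 CPM in Model 56, 57 and 59, with Control 43 far above the others. All 5 tested members were lower on the composition scale and none on totals, and 2 were lower without Control 43. Hepatocyte markers were near 0 in most libraries, but Cyp2e1 stood at 46.8, 23.8 and 1.78 CPM in Control 43, 44 and 45, against 0.114, 0.744 and 0.586 CPM in Model 56, 57 and 59, highest in Control 43 and 44, and fell on both scales (-5.65 ± 0.91, -4.73 without Control 43). The sum of mesothelial markers was 47 to 58 CPM in Control and 99.9 to 190.3 CPM in Model, but most of the Model sum was Krt19, which is also a duct marker. Without Krt19 the sum was 11.2 to 28.2 CPM in Control and 5.96 to 14.9 CPM in Model. Krt19 was the 1 member of 8 called higher, and 3 were lower on the composition scale (median -0.96, 1.22 on totals), or 1 without Control 43. The sum of intestinal markers was 1.02 to 3.07 CPM in Control and 1.93 to 3.35 CPM in Model, near 0 throughout. Whether adjoining fat, blood or mesothelium had a part in the lists above was not tested.

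**Figure D5:**
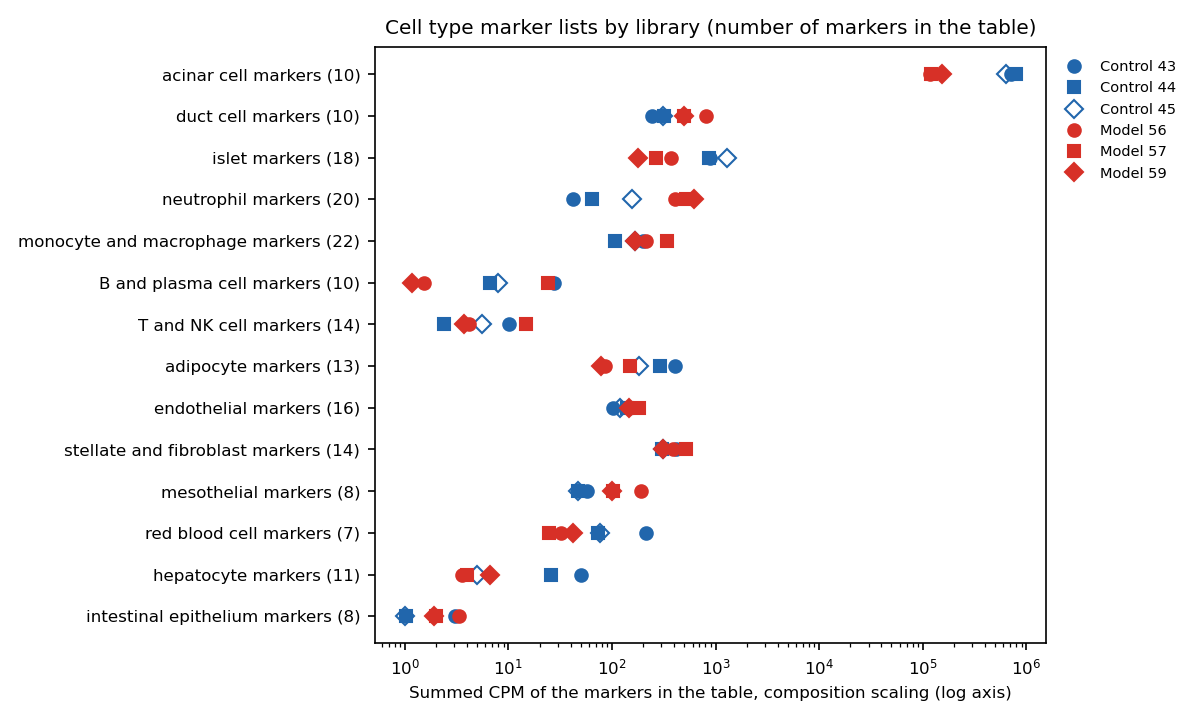
Summed CPM on the composition scale (log axis) of each cell type marker list in each library, with the number of markers in the table in brackets. Neutrophil sums run from 42.2 to 156 CPM in Control and from 410.4 to 619 CPM in Model, while T and NK cell and B cell sums overlap between groups.

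The share of genes called lower was largest among those most abundant in Control. Rank was set by the Control mean, which is also the base of the fold change. Ranking in this way by itself tilts high ranks to falls and low ranks to rises. Genes of low rank could also pass the expression filter through the other groups alone. The trend with rank was not tested. Of the 50 genes with the highest mean in Control 42 were lower on the composition scale, 22 of them on both scales, and 4 were higher, while these genes went from 91.0% to 64.0% of counts. By number, more of the lower genes lay further down. Of the 3000 genes ranked 1001 to 4000, 996 were lower and 506 higher, and of the 4000 ranked 4001 to 8000, 752 and 885. Of the 4828 genes ranked 8001 and below 1244 were higher and 347 lower. Both directions were thus present at every level, and the median fold change went from -2.08 in the first 50 genes to 0.37 in the last group on the composition scale, and from 0.06 to 2.51 on totals.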

How the data were processed

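Polyadenylated RNA from pancreas was sequenced, 1 library per mouse, and the 3 Model and 3 Control libraries were compared. Build GRCm38.p6 and the tools RSEM 1.2.12, HISAT2 2.0.4 and Bowtie2 2.2.5 are listed, in no stated role, per the submitters' processing notes. Per the file headers, the authors deposited read counts for 17132 genes, taken here as RSEM's estimated counts (93.5% of the values were whole), with FPKM, and TPM that was not tested. Means over libraries that the authors deposited were not used, and 9 of these columns carry a numbered Control name that no label explains. Coordinates come from RefSeq by gene identifier, for 17031 genes.

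Tests used edgeR 4.0.16 (R 4.3.3) on the rounded estimated counts. Its default expression filter kept 12828 genes and removed 4304. A quasi-likelihood model with group as its only term was fitted to all 9 libraries of the series (6 residual degrees of freedom), with TMM factors for the composition scale and with factors of 1 for library totals. The Benjamini-Hochberg adjustment ran over all genes tested, with a threshold of 0.05. The standard error is the fold change divided by the square root of F. Standard errors had a median of 0.21 on the composition scale and 0.25 on totals, with a common biological coefficient of variation of 0.175. The labels say that the mice were separate animals and name no batch.

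The 69 gene lists (55 pathways, 14 cell types) and the rules below were chosen with earlier results of these data known. Named genes are the 12 highest and 12 lowest fold changes among genes called on both scales, whose groups do not overlap on either scale, excluding predicted and clone names and genes under 10 CPM in both groups. To these were added the 10 genes that gained and the 10 that lost most share of counts, and, from each list, the 3 smallest p-values among members that reached 1 CPM in a group. A few genes that these rules name are not reported here. Lists are described by counts and medians, without a test. Motifs were searched on both strands of 250 bases before the start. Alternatives were RLE factors, TMM without the 50 most abundant genes, totals without enzyme counts, other filters, DESeq2 1.42.0, limma 3.58.1 (voom, or log2 FPKM with a pseudocount of 1 or 0.1, keeping genes that reached 1 FPKM in 3 samples), only the compared groups, a test against 2-fold, and each library left out.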

Additional observations from a re-analysis of the deposited data

How the results depend on the processing

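No paired analysis was possible because the groups share no replicate numbers. Leaving out each library in turn gave 2244 to 2544 genes higher and 2299 to 2574 lower on the composition scale, 11945 to 12183 higher and 112 to 129 lower on totals, and enzyme shares lower by 33.0 to 35.9 percentage points. A test against a 2-fold change gave 394 higher and 504 lower on the composition scale, 56 lower on totals, 394 higher on both scales and 56 lower on both, since it asks for more than a difference. Library totals without the enzyme counts gave 4102 higher and 1804 lower in place of 2736 and 2730. As a share of summed FPKM the enzyme lists changed by -28.1 points in place of -34.1, and FPKM divides by gene length. No other count over all genes moved by over 1.5 times under the alternatives run. Within the gene lists 83 counts of called members, in 36 of 69 lists, moved by more than that or to or from 0 when 1 library was left out. List medians on the composition scale moved by at least the SD between libraries in 29 of 69 lists with totals without enzyme counts. They did so in 16 of 69 with log2 FPKM and a pseudocount of 1, and in 12 of 68 with a filter of 5 CPM in 3 samples. At most 2 list medians changed sign under any single alternative. Over 3786 values of named genes on the composition scale under these alternatives, 3702 kept their direction and call. Another 81 kept their direction and lost the call, 61 of them in the 2-fold test, 3 gained it and none reversed. These genes were chosen from the same libraries by fold change, share or small p, which favours stable calls. With 3 mice a group, changes near the median standard error of 0.21 were not detectable.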

Other observations

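Genes beside abundant enzyme genes were looked at after their values were seen. Within 10000 bases of 25 enzyme genes that each took at least 0.1% of Control counts lay 17 other tested genes, of which 6 were lower and 5 higher on the composition scale, 2 of them lower on both scales, with a median of 0.13 against 0.04 for all genes. The lower ones were Lcat and Psmb10 near Ctrl, the kallikrein Klk1b5 near Klk1 (-2.68 ± 0.17), uromodulin (Umod, -2.64 ± 0.45) near Gp2, Casp9, whose span overlaps Cela2a, and Galnt6 (-0.98 ± 0.23) near Cela1. Pskh1, 192 bases from Ctrl, was not called (0.13 ± 0.16), and Ralgds near Cel rose by 1.26 ± 0.15. Reads shared with the enzymes were not tested as a source of these values.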
